A study of Homo sapiens with 8 samples.

Results

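The metallothioneins and the genes that sense and move zinc were read in cells labelled Caco-2, with and without Siglec-XII. The set held 8 genes of the 63816 entries in the expression table: the metallothioneins MT1E, MT1F, MT1G, MT1X and MT2A, the zinc-sensing transcription factor MTF1, the zinc exporter SLC30A1 (ZnT1) and the zinc importer SLC39A4 (ZIP4). They were taken by gene symbol, with no threshold on their values, and where a symbol stood on more than 1 entry the entry with the highest mean was used. This applied to SLC39A4 alone, which had 2 entries.

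Caco-2 is an established line from a human colorectal adenocarcinoma, and the study used it because it lacks Siglec-XII, a sialic acid-binding-type receptor that in humans has lost the ability to bind sialic acid. The 4 empty vector libraries came from cells stably carrying pcDNA3.1 without an insert, and the 4 Siglec-XII libraries from cells stably carrying pcDNA3.1 with full-length SIGLEC12. The libraries are called Caco-2 as labelled, although most colon markers and the most abundant trophoblast markers, given below, go against that label. The colon markers CDX1 and CDX2 go with it, and most other trophoblast markers were low. Both populations were selected with G418, so drug selection and the vector backbone were shared. The 2 populations were transfected and selected separately, so chance differences between them and any effect of Siglec-XII cannot be told apart. The sources differ on whether libraries of a group are separate cultures or technical replicates, so the errors and p-values measure only the spread between these libraries. In bulk RNA, fewer cells expressing a gene and less of its RNA per cell cannot be told apart either.

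Metallothioneins are small cysteine-rich proteins that bind zinc and copper ions through clusters of thiols and buffer the free zinc of the cell. When free zinc or cadmium rises, MTF1 binds metal response elements in the promoters of metallothionein genes and of SLC30A1, and the exporter then carries zinc out of the cytosol across the plasma membrane. SLC39A4 sits on the apical membrane of intestinal epithelium and takes up zinc from the diet, and its loss causes the zinc deficiency disease acrodermatitis enteropathica.

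The 5 metallothionein genes lie together on chromosome 16, with MT2A at 56642496 to 56643409, MT1E at 56659387 to 56661024, MT1F at 56691643 to 56694610, MT1G at 56700642 to 56701977 and MT1X at 56716382 to 56718108 in GRCh37. MT1G is on the minus strand and the others are on the plus strand. MTF1 (38275246 to 38325264) and SLC30A1 (211744910 to 211752503) are both on the minus strand of chromosome 1. The coding sequences of the metallothioneins are shown because their likeness bears on how short reads are divided among them, with the cysteine codons TGC and TGT in capitals.
MT2A: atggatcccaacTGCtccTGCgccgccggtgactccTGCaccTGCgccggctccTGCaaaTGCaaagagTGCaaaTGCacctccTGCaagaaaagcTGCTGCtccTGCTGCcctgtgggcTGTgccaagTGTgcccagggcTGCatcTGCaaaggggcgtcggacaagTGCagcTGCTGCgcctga
MT1E: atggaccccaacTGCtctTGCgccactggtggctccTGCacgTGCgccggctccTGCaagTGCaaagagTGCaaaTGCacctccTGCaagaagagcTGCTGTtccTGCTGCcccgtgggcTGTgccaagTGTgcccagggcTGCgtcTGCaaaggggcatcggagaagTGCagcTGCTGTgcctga
MT1X: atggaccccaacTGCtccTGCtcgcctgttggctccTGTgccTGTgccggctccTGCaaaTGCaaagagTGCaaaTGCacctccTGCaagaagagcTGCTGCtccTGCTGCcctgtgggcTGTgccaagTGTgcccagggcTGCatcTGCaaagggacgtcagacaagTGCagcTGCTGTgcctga
MT1F: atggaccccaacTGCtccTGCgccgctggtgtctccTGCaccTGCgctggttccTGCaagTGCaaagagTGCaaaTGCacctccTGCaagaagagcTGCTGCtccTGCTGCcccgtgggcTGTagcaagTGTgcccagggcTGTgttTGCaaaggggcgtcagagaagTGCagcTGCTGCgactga
MT1G: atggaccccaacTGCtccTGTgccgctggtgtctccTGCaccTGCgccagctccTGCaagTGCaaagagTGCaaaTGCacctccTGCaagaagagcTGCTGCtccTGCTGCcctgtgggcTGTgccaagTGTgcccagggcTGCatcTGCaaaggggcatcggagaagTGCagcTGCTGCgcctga

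Each coding sequence was 186 bases long and encoded 61 amino acids, of which 20 were cysteines. Aligned base by base, identity ran from 88.7% between MT1F and MT1X to 95.2% between MT1G and MT2A. Likeness was also counted over whole transcripts as the share of 31-base windows found in no other annotated gene. This share was 46.0% for MT1X, the lowest of the members counted. It was 68.5% for MT2A, 68.6% for MT1G, 84.7% for MT1E and 86.1% for MT1F. For SLC39A4 it was 77.1%, counted on the less abundant of its 2 entries, as the entry used was not in the annotation. Windows shared between the 2 SLC39A4 entries could therefore not be counted, and this share may be too high. MTF1 at 97.9% and SLC30A1 at 100% shared little or nothing. Of the 374 windows of MT1X, 172 were unique and 136 were shared with an annotated gene outside the metallothionein entries. Its low share is thus not a measure of likeness to other metallothioneins alone. The authors' quantification divides reads that match several transcripts. By this count the values of single metallothioneins, and that of MT1X above all, are less certain than those of MTF1 and SLC30A1.

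Promoters were searched on both strands for the core of the metal response element, TGCACNC or TGCGCNC, in which N is any base. The 250 bases before the start are shown, 5′ to 3′ on the gene's own strand, for the most abundant metallothionein, for the least unique one and for the exporter, with matches in capitals. The sequences are from the RefSeq promoter table (GRCh38.p14), which held 4 of the 8 members. Each matched GRCh37 exactly at 1 place: chr16:56642246-56642495 on the plus strand for MT2A, chr16:56716132-56716381 on the plus strand for MT1X and chr1:211752504-211752753 on the minus strand for SLC30A1.
MT2A: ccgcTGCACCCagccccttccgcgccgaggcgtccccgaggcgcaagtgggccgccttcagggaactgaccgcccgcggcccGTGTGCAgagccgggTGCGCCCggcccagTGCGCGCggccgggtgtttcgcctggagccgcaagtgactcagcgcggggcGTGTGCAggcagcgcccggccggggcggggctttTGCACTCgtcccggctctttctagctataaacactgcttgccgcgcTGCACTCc
MT1X: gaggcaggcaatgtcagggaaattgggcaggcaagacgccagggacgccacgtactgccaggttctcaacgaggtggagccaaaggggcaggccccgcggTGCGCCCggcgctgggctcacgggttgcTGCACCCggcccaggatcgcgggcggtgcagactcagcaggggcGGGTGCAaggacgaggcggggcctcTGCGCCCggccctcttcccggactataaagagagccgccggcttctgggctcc
SLC30A1: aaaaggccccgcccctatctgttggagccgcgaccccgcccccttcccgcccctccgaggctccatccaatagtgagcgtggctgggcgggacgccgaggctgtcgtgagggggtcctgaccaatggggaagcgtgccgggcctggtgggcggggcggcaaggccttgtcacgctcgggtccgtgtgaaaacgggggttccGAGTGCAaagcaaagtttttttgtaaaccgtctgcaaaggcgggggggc

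These upstream stretches held 7 matches for MT2A, 4 for MT1X and 1 for SLC30A1, and no matches overlapped. That of MTF1 held 0. In the whole 300-base windows of the table, which run past the start, MT2A held 8 matches, MT1X held 4, SLC30A1 held 2 and MTF1 held 0. Of 35116 such windows, 29.6% held 1 or more matches, 2.3% held 3 or more and 0.162% held 5 or more. A match is a stretch of letters and not a measured binding site.

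Metallothionein RNA was found in both populations and came from few of the genes, with MT2A contributing the most. Values are in TPM, the share of a library's transcripts scaled to a total of 1000000, which corrects for transcript length and so allows levels of different genes to be set side by side. Over all 8 libraries the mean level was 95.4 TPM for MT2A, 42.5 TPM for MT1E, 30.8 TPM for MT1X, 30.4 TPM for SLC30A1, 29.5 TPM for SLC39A4, 24.1 TPM for MT1F and 9.58 TPM for MTF1. MT1G was listed at 0 in every library. The range of MT2A lay wholly above that of MT1E, and the range of MTF1 lay below that of MT1F. From MT1E through MT1F the ranges of neighbours overlapped. Within libraries, MT1E was above MT1X in 7 of 8, MT1X above SLC30A1 in 4 of 8, SLC30A1 above SLC39A4 in 5 of 8 and SLC39A4 above MT1F in 6 of 8. MT1X, SLC30A1 and the SLC39A4 entry used could therefore not be put in order. Summed over both its entries, SLC39A4 was at 46.8 to 67.6 TPM, above MT1X and SLC30A1 in every library.

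**Figure D1:**
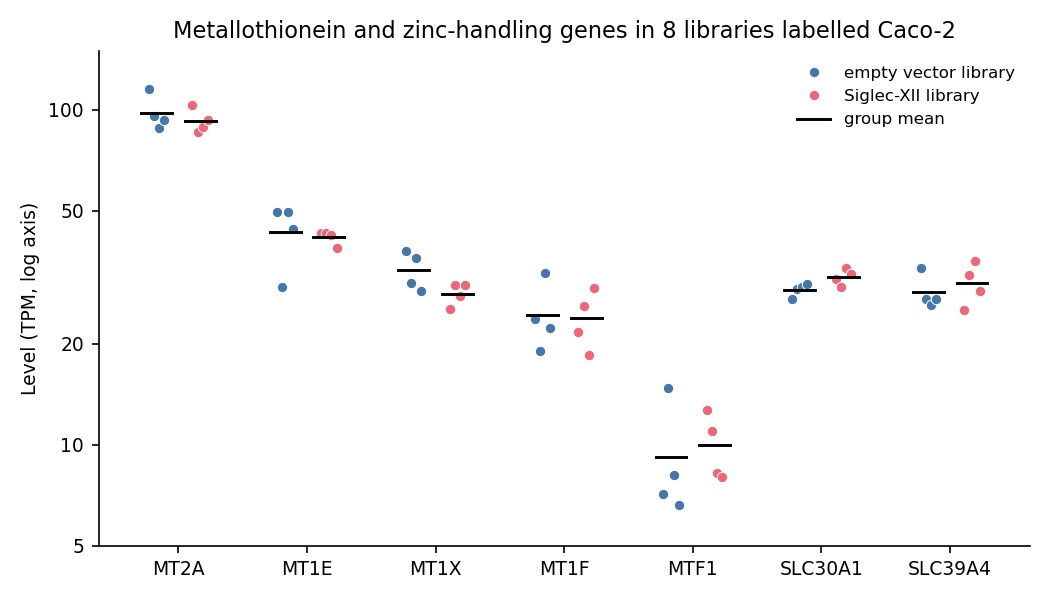
Level of each gene in TPM (log axis) in every library, empty vector in blue and Siglec-XII in red, with black bars for the group means (n = 4 each). MT2A lies above the other genes in every library and the groups overlap for all 7 genes shown. MT1G, listed at 0 in every library, cannot be drawn on a log axis. SLC39A4 is drawn from the more abundant of its 2 entries.

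Before the members, the libraries were checked against their labels. SIGLEC12 was at 0.11 ± 0.05 (SD, n = 4) on the log2(TPM + 1) scale in empty vector libraries and at 10.70 ± 0.06 (SD, n = 4) in Siglec-XII libraries. Of 12 colon epithelium markers, 8 were under 1 TPM in every library, and of these KRT20 and FABP1 were listed at 0 throughout. VIL1 and GPA33 had means of 0.537 and 0.629 TPM in empty vector libraries and 0.745 and 0.424 TPM in Siglec-XII libraries. The summed colon marker level was 163 to 186 TPM with empty vector and 190 to 216 TPM with Siglec-XII, and CDX1 (139 and 156 TPM) and CDX2 (37.3 and 43.9 TPM) carried most of it. Of 12 trophoblast markers, 7 passed the filter, with GATA3 at 402 and 359 TPM, HSD3B1 at 344 and 345 TPM, TFAP2A at 33.0 and 33.1 TPM and CYP19A1 at 4.25 and 2.92 TPM in the same order of groups. Their sum was 715 to 841 TPM and 727 to 765 TPM. The general epithelial markers KRT8 (3903 and 4617 TPM), KRT18 (2947 and 3419 TPM), EPCAM (540 and 566 TPM) and CDH1 (288 and 324 TPM) were abundant, with a sum of 7270 to 8262 TPM and 8768 to 9067 TPM. In every library most colon markers were thus absent or near 0. The trophoblast list was mixed, with GATA3 and HSD3B1 abundant and most others low. CDX1 and CDX2, the only 2 colon markers that passed the filter, go with the label of a colorectal line. The low colon markers and the abundant GATA3 and HSD3B1 go against it, and the identity of the cells is in doubt. This holds for both groups, and no marker of these 3 lists passed the test below. The values of the metallothionein and zinc genes are those of the cells in these libraries, whatever their origin, and the part of cell identity in them was not tested. Mitochondrially encoded RNA took 6.67% to 11.2% of TPM, and 15513 to 15934 entries reached 1 TPM in a library. The table used here holds no read counts, so the reads behind each value are unknown.

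Whether the metallothionein and zinc genes differed with Siglec-XII was asked with limma on log2(TPM + 1), fitted across the 15590 entries with 1 TPM or more in 4 or more libraries, with Benjamini-Hochberg adjustment over all of them. No tested member passed the threshold, and the intervals below give the sizes of difference that remain possible. Of the 8 members, 7 passed the filter and 0 had an adjusted p under 0.05, against 0.648% of all tested entries. At an unadjusted p under 0.05 there was 1 member, MT1X, against 16.5% of all entries. In 0 of the 7 did the libraries of the groups separate without overlap, against 10.8% of all entries. The log2 difference, Siglec-XII minus empty vector, had a median of -0.02 over the 7 members and 0.07 over all entries. Single values were also put through a two-sided exact permutation of the 70 labellings of 4 against 4 libraries, whose smallest possible p is 0.0286.

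MT2A, a metallothionein of most human tissues, was at 115, 96.1, 88.2 and 93.1 TPM in empty vector replicates 1 to 4 and at 103, 85.6, 88.6 and 93.5 TPM in Siglec-XII replicates 1 to 4. The groups overlapped, and replicate 1 was the highest library in each. The log2 difference was -0.08 (95% interval -0.27 to 0.12, limma adjusted p = 0.709, exact permutation p = 0.514), so the interval leaves room for a small fall or a small rise.

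MT1E, an inducible metallothionein of the MT1 cluster, was at 49.6, 29.5, 49.5 and 44.2 TPM with empty vector and at 42.8, 43.0, 42.4 and 38.6 TPM with Siglec-XII. Empty vector replicate 2 was the lowest of all 8 libraries, while the other empty vector libraries were all above the highest Siglec-XII library. The log2 difference was -0.02 (95% interval -0.35 to 0.31, limma adjusted p = 0.954, exact permutation p = 0.914). Without empty vector replicate 2 it was -0.19, with a limma adjusted p of 0.169.

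MT1X, another inducible MT1 gene, was at 38.0, 30.3, 36.1 and 28.7 TPM with empty vector and at 25.4, 29.9, 27.9 and 29.9 TPM with Siglec-XII. Empty vector replicates 1, 2 and 3 stood above every Siglec-XII library, replicate 2 by little, and empty vector replicate 4 fell inside their range. The log2 difference was -0.22 (95% interval -0.44 to -0.004), with an unadjusted limma p of 0.0466 that became 0.296 after adjustment. The exact permutation p was 0.114. This was the largest difference in size among the 7 tested members, in the gene whose transcript had the smallest share of unique windows.

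MT1F was at 23.7, 19.1, 32.6 and 22.3 TPM with empty vector and at 21.7, 25.9, 18.5 and 29.3 TPM with Siglec-XII. High and low libraries occurred in both groups, with empty vector replicate 3 the highest and Siglec-XII replicate 3 the lowest. Group means differed by a log2 value of -0.03 (95% interval -0.42 to 0.36, limma adjusted p = 0.953, exact permutation p = 0.914).

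Thus all 4 tested metallothioneins had a lower mean with Siglec-XII and none passed the test, with a median log2 difference of -0.05. Their sign held under the 5 changes of scaling, but that of MT2A turned without empty vector replicate 1, that of MT1E without empty vector replicates 1 or 3 or Siglec-XII replicate 4, and that of MT1F without empty vector replicate 3 or Siglec-XII replicates 1 or 3. For comparison by length, the transcripts of MT2A, MT1X and MT1F were under 500 nt and that of MT1E was 704 nt. The 217 tested protein-coding entries under 500 nt had a median log2 difference of -0.01, and the 4065 entries of 4000 nt or more one of 0.10.

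**Figure D2:**
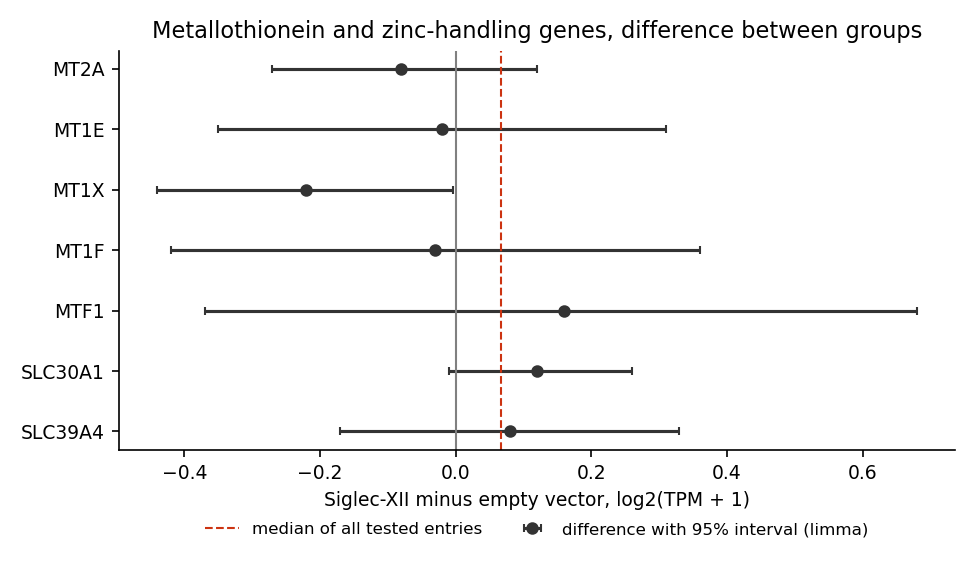
Difference in mean log2(TPM + 1), Siglec-XII minus empty vector, for the 7 tested genes (points) with 95% intervals from limma (bars). The grey line marks no difference and the dashed line the median of all tested entries, 0.07. The interval of MT1X ends just below 0, at -0.004, and those of the other 6 genes include 0.

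The total metallothionein pool differed by less between the groups than between libraries of the empty vector group. Summed over the 5 members it was 226, 175, 206 and 188 TPM in empty vector replicates 1 to 4 and 193, 184, 177 and 191 TPM in Siglec-XII replicates 1 to 4. The Siglec-XII sums lay inside the empty vector range in every library. The means were 199 ± 22.2 TPM and 187 ± 7.24 TPM (SD, n = 4 each), a difference of -12.4 TPM that is smaller than the empty vector SD. By gene, MT2A supplied 49.5% ± 5.05 of the sum with empty vector and 49.7% ± 2.92 with Siglec-XII (SD, n = 4 each). MT1E supplied 21.6% ± 3.25 and 22.4% ± 1.65, MT1X 16.7% ± 1.02 and 15.2% ± 1.37, and MT1F 12.3% ± 2.42 and 12.8% ± 2.30. The share of MT2A ran from 42.7% in empty vector replicate 3 to 54.9% in empty vector replicate 2, so its share differed more between libraries of 1 group than between the group means.

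**Figure D3:**
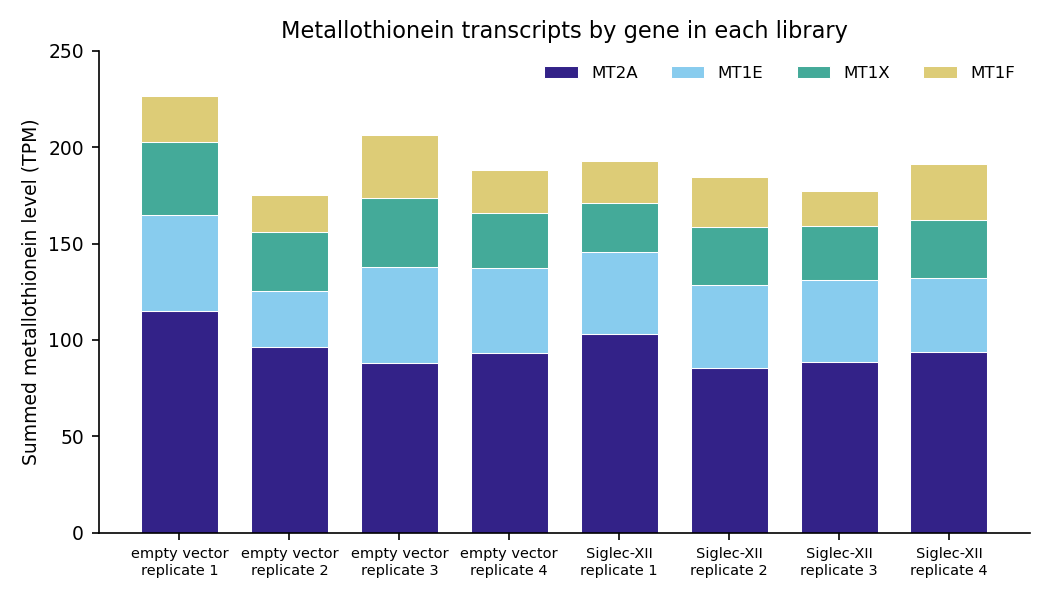
Summed level of the metallothioneins in TPM in each library, stacked by gene (MT1G was listed at 0). The sum ran from 175 to 226 TPM with empty vector and from 177 to 193 TPM with Siglec-XII, with MT2A the largest part of every bar.

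The other metallothionein entries added little. The table held 22 metallothionein entries, pseudogenes included, of which 13 were listed at 0 in every library and 5 passed the filter. Summing all 22 gave 204 ± 22.4 TPM with empty vector and 191 ± 8.66 TPM with Siglec-XII (SD, n = 4 each). MT1A was the only tested entry beyond the members, at 2.40, 3.98, 3.87 and 2.98 TPM with empty vector and 4.35, 0.429, 4.79 and 4.16 TPM with Siglec-XII. Its Siglec-XII replicate 2 was the lowest of the 8 libraries while the other Siglec-XII libraries were the highest, and the log2 difference was -0.13 (95% interval -1.05 to 0.79, limma adjusted p = 0.904). MT4, a metallothionein of stratified epithelium, ranged from 0 to 2.26 TPM and was not tested. The pseudogenes MT1P3 and MT1XP1 were above 0 in empty vector replicate 3 alone, at 1.30 and 2.39 TPM, and MT3, the brain form, was listed at 0 throughout.

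MTF1, which senses zinc through its zinc fingers and drives metallothionein transcription, was at 7.11, 14.8, 8.15 and 6.61 TPM with empty vector and at 12.7, 11, 8.25 and 7.99 TPM with Siglec-XII. Empty vector replicate 2 was the highest library and the others of its group lay among or below the lowest Siglec-XII libraries. The log2 difference was 0.16 (95% interval -0.37 to 0.68, limma adjusted p = 0.780, exact permutation p = 0.629), the widest interval of the 7 members. Leaving out 1 library moved the log2 difference to between 0.04, without empty vector replicate 4 or without Siglec-XII replicate 1, and 0.39, without empty vector replicate 2 (limma adjusted p = 0.237). The library with the most MTF1 was also the library with the least MT1E. In that library MT2A (96.1 TPM), MT1X (30.3 TPM) and MT1F (19.1 TPM) were not at their lowest.

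SLC30A1, the exporter induced through MTF1, was at 27.3, 29.2, 29.6 and 30.2 TPM with empty vector and at 31.3, 29.5, 33.7 and 32.4 TPM with Siglec-XII. In 3 of 4 Siglec-XII libraries the level was above the highest empty vector library, and Siglec-XII replicate 2 fell inside the empty vector range. This gave a log2 difference of 0.12 (95% interval -0.01 to 0.26, limma adjusted p = 0.346, exact permutation p = 0.0857). It was the steadiest of the tested members.

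SLC39A4 was at 33.8, 27.2, 26.2 and 27.3 TPM with empty vector and at 25.3, 32.1, 35.3 and 28.8 TPM with Siglec-XII, read from its more abundant entry (ENSG00000285243). Empty vector replicate 1 stood apart from its group, and the highest and the lowest of the 8 libraries were both Siglec-XII. With this entry the log2 difference was 0.08 (95% interval -0.17 to 0.33, limma adjusted p = 0.765, exact permutation p = 0.543). The other entry (ENSG00000147804) was nearly as abundant, at 26.5 ± 3.23 and 27.4 ± 4.53 TPM (SD, n = 4 each), and how reads divide between the entries is uncertain. Summed over both, the level was 55.1 ± 6.57 TPM with empty vector and 57.9 ± 8.82 TPM with Siglec-XII (SD, n = 4 each). For the sum, an alternative added after seeing the data, the log2 difference was 0.06 (95% interval -0.20 to 0.32, exact permutation p = 0.657).

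Some members varied more between libraries of a group than genes of a like level. The within-group SD of log2(TPM + 1) was 0.25 for MT1E, 0.29 for MT1F and 0.40 for MTF1. Entries within 0.5 of the same mean log2 level had medians of 0.11, 0.12 and 0.16, and 97.7%, 97.3% and 95.5% of them had a smaller SD. Among protein-coding entries with transcripts of at most 750 nt the corresponding shares were 97.6% for MT1E and 97.6% for MT1F, so short transcripts of the same level were mostly steadier as well. For MT2A (0.14), MT1X (0.15) and SLC39A4 (0.18) the shares were lower, at 87.3%, 79.7% and 89.4%, so 6 of the 7 tested members had an SD above the median of their level. The SD of SLC30A1 was 0.07, and only 14.2% of entries of its level had a smaller one. The farthest library from its group mean was empty vector replicate 2 for MT1E (-0.50) and for MTF1 (0.70), empty vector replicate 3 for MT1F (0.43) and empty vector replicate 1 for MT2A (0.23). These SDs pool both groups. Taken by group, the SD of MT1E was 0.34 with empty vector but 0.07 with Siglec-XII. For MT1F it was 0.31 and 0.28, and for MTF1 0.48 and 0.30.

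**Figure D4:**
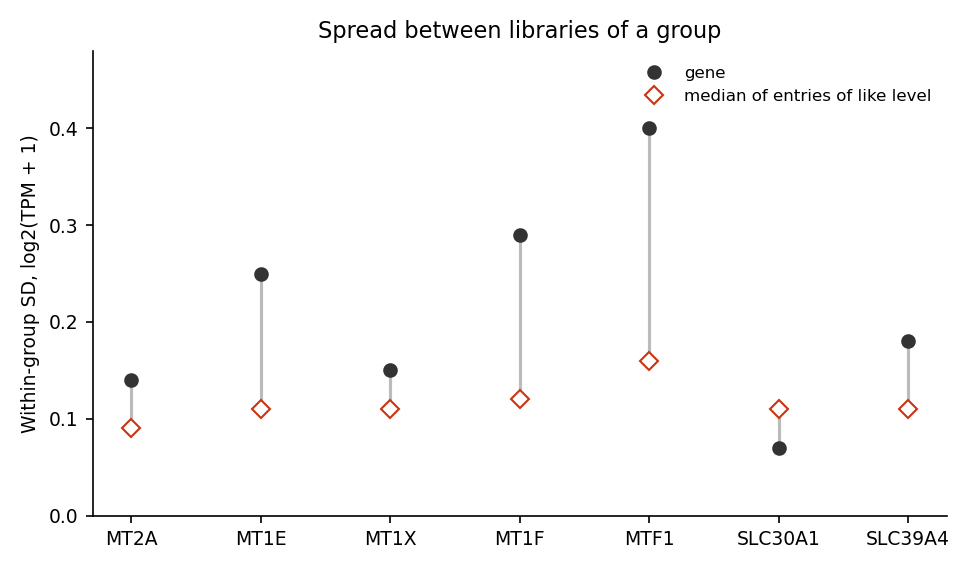
Within-group SD of log2(TPM + 1) over 8 libraries for each tested gene (filled circles) and the median SD of all tested entries within 0.5 of the same mean level (open diamonds). MTF1, MT1F and MT1E lie farthest above their diamonds and SLC30A1 lies below its own.

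The wider zinc transporter families gave no called gene. Exporters of the SLC30 family move zinc out of the cytosol, to the outside or into organelles, and 6 of the 9 listed beyond SLC30A1 passed the filter. Of these, 3 were higher and 3 lower with Siglec-XII, with a median log2 difference of -0.01, and 0 passed the test. With quantile normalization or equal upper quartiles 1 was higher and 5 were lower, and with the length trend removed 2 were higher and 4 lower. SLC30A5 (35.7 and 37 TPM, empty vector then Siglec-XII) and SLC30A6 (23.5 and 24.3 TPM), which together load zinc into the early secretory pathway, had adjusted p-values of 0.809 and 0.763 by limma. SLC30A7 (9.12 and 11.4 TPM), a Golgi transporter, had a log2 difference of 0.30 (limma adjusted p = 0.229). SLC30A9 (32.3 and 28.4 TPM), a mitochondrial zinc transporter, had a log2 difference of -0.18 (limma adjusted p = 0.162), and its groups did not overlap. Of the 6 tested exporters 1 separated without overlap, against 10.8% of all entries.

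Importers of the SLC39 family carry zinc into the cytosol. Of the 13 listed beyond SLC39A4, 10 passed the filter, 10 were higher with Siglec-XII and 0 passed the test. Their median log2 difference was 0.10, beside 0.07 over all entries. The count of higher importers depended on scaling, with 8 of 10 higher and a median of 0.03 after quantile normalization, 8 of 10 with equal upper quartiles, 9 of 10 with the mitochondrial and 100 most abundant entries left out, and 8 of 9 with the length trend removed. The summed level of the 13, as deposited, was 457 to 499 TPM with empty vector and 524 to 566 TPM with Siglec-XII, without overlap. The sums of the colon and general epithelial markers given above did not overlap either. The importer sum was not made under the other scalings. SLC39A1, a plasma membrane importer and the most abundant, was at 196 ± 6.74 and 222 ± 7.81 TPM (SD, n = 4 each), with a log2 difference of 0.18 (95% interval 0.08 to 0.28, limma adjusted p = 0.109) and no overlap. SLC39A14, which also carries iron and manganese, was at 93.7 ± 8.93 and 107 ± 4.89 TPM (limma adjusted p = 0.226). SLC39A8, another carrier of zinc and manganese, was at 69.5 ± 11.4 and 74.4 ± 4.53 TPM (limma adjusted p = 0.645), and SLC39A9 was at 28.6 ± 3.22 and 31 ± 2.32 TPM (limma adjusted p = 0.542). Of the 10 tested importers 2 separated without overlap, against 10.8% of all entries, namely SLC39A1 and SLC39A7, the latter named after its values were seen.

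Copper-handling genes were read because metallothioneins also bind copper. All 12 were tested, 8 higher and 4 lower with Siglec-XII (5 and 7 with the length trend removed), with a median log2 difference of 0.07, and 0 passed the test. SOD1, the copper and zinc superoxide dismutase, was at 307 ± 18.8 and 285 ± 10.8 TPM (SD, n = 4 each, limma adjusted p = 0.347). The copper chaperones of cytochrome oxidase COX17 (95.4 and 84.0 TPM) and COX11 (53.6 and 61.0 TPM) had log2 differences of -0.18 and 0.18, with limma adjusted p-values of 0.283 and 0.160. ATOX1, which hands copper to the secretory pathway pumps, was at 66.3 and 70 TPM (limma adjusted p = 0.813). SLC31A2, a low-affinity copper transporter named after its values were seen, had the lowest adjusted p of the list. Its level was 4.52 ± 1.01 and 6.37 ± 0.309 TPM (SD, n = 4 each), without overlap, and the log2 difference was 0.43 (95% interval 0.15 to 0.72, limma adjusted p = 0.156). Of the 12 tested copper genes 1 separated without overlap, against 10.8% of all entries.

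Glucocorticoids also induce metallothioneins, so the receptor and common targets were listed. Of 8 genes 6 were tested, 5 higher and 1 lower with Siglec-XII (4 and 2 with quantile normalization), with a median log2 difference of 0.15, and 0 passed the test. The targets SGK1 (11.2 and 12.4 TPM), FKBP5 (10.5 and 10.7 TPM), DUSP1 (8.90 and 10.8 TPM) and PER1 (7.86 and 8.91 TPM) were all at modest levels, with limma adjusted p-values of 0.556, 0.864, 0.240 and 0.523. The receptor gene NR3C1 was under 1 TPM in every library, at 0.236 ± 0.172 and 0.393 ± 0.126 TPM (SD, n = 4 each), and was not tested.

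Stress genes that metals also induce gave 8 higher and 2 lower of 10 tested (7 and 3 with quantile normalization), with a median log2 difference of 0.12, and 0 passed the test. TXNRD1, a thioredoxin reductase under NRF2, was at 137 ± 15.2 and 162 ± 5.59 TPM (SD, n = 4 each), with a log2 difference of 0.25 (limma adjusted p = 0.148). NQO1, a quinone reductase under the same factor, was at 85.8 and 95.9 TPM (limma adjusted p = 0.370). The heat shock genes HSPA1A (109 and 107 TPM) and DNAJB1 (97.6 and 105 TPM) had limma adjusted p-values of 0.907 and 0.418. HMOX1, the heme oxygenase, had the lowest adjusted p of the list and was named for that after its values were seen. Its level was 61.5 ± 6.70 and 80.2 ± 6.06 TPM (SD, n = 4 each), without overlap, and the log2 difference was 0.38 (95% interval 0.20 to 0.56, limma adjusted p = 0.0891). Of the 10 tested stress genes 1 separated without overlap, against 10.8% of all entries.

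The genes whose pattern over the 8 libraries was most like that of the metallothioneins were sought among 12076 protein-coding entries, by Pearson's r with the mean log2 level of the 4 tested metallothioneins. The 5 closest were SERPING1 (r = 0.914), an inhibitor of complement C1, CLDN3 (r = 0.909), a tight junction claudin, PDE4A (r = 0.90), a cAMP phosphodiesterase, RAB40A (r = 0.899), a small GTPase, and DCP1B (r = 0.898), a decapping cofactor. All points share the same libraries, and with 8 points and this many genes the values serve as a description only.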

How the data were processed

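RNA-seq of 8 libraries labelled Caco-2 was analysed, 4 per group, grouped by the titles in the labels. The labels give a strand-specific total RNA kit, paired reads of 100 bp and 25000000 to 40000000 reads per library, and name kallisto 0.45.0. The study's methods name hg19, another kallisto version and an mRNA kit. The authors deposited 1 table of log2(TPM + 1) for 63816 gene entries, used here without rescaling. Each column sums to 1000000 TPM, so depth per library and counting error are unknown, and no count test was possible.

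Groups were compared by limma 3.58.1 in R 4.3.3 (lmFit, eBayes with trend) on log2(TPM + 1), pseudocount 1, over entries at 1 TPM or more in at least 4 libraries, with Benjamini-Hochberg adjustment and 95% intervals. A fold change on this scale understates the change of low genes. Single values were compared by exact permutation in SciPy 1.17.1 under Python 3.11.15. The fit was tested on simulated data. Positions and transcripts are from GENCODE v44 lifted to GRCh37, which held 86.9% of entries, and promoters from RefSeq. For a protein-coding entry whose named transcript was missing or not coding, the longest coding transcript gave the length.

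Named were the members, SIGLEC12, listed genes past the threshold, other metallothioneins above 1 TPM, the 4 most abundant genes of each list and the 5 genes most like the metallothioneins. KRT20, FABP1, the less abundant trophoblast markers, MT3, NR3C1, SLC39A7, SLC31A2 and HMOX1 were added after their values were seen. The members and lists were chosen with earlier results of these data known. The alternatives were another pseudocount, other filters, scalings and variance models, a length correction, the replicate number as a block, each library left out, all metallothionein entries summed and, chosen after seeing the data, both SLC39A4 entries summed.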

Additional observations from a re-analysis of the deposited data

Results flagged for a closer look

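In groups of 4 libraries, a library was singled out when its gap to the nearest other, as a share of the group's range, exceeded Dixon's 95% limit. Of 20 groups examined 5 did so. Chance flags about 1 in 20 groups, a rate that does not apply to the pseudogenes below, whose other libraries are all at 0. All values here are log2(TPM + 1). For MT1E, Siglec-XII replicate 4 was at 5.31, below 5.44, 5.45 and 5.46 in the rest of its group. For SLC39A4, empty vector replicate 1 was at 5.12, above 4.77, 4.82 and 4.82. For MT1A, Siglec-XII replicate 2 was at 0.52, while the others ran from 2.37 to 2.53. The pseudogenes MT1P3 (1.20) and MT1XP1 (1.76) were above 0 in empty vector replicate 3 alone among the empty vector libraries. The same library had the highest MT1F level of the 8.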

How the results depend on the processing

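Of the members, 0 passed an adjusted p of 0.05 by limma under any of the 20 alternatives, and the lowest adjusted p was 0.169. Of 133 member values 126 kept their sign and 7 reversed, all with 1 library left out: leaving out each library in turn gave log2 differences of -0.13 to 0.0021 for MT2A, -0.19 to 0.05 for MT1E and -0.13 to 0.12 for MT1F. The signs of the other members held, but over the alternatives the log2 differences ran from 0.04 to 0.39 for MTF1, from 0.02 to 0.16 for SLC30A1, from 0.0065 to 0.16 for SLC39A4 and from -0.29 to -0.16 for MT1X, so those of the zinc genes came close to 0 under some. The ratio of summed metallothionein levels, Siglec-XII over empty vector, was 0.938 and ran from 0.896 with equal upper quartiles to 0.982 without empty vector replicate 1. SLC39A4 had no value with the length trend removed, since its entry had no annotated transcript.

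Over all entries, 101 calls became 51 with no filter, 39 without small structured RNAs, 66 with the length trend removed and 54 with eBayes without trend. Without empty vector replicates 1 to 4 they were 47, 154, 40 and 53, and without Siglec-XII replicates 1 to 4 they were 56, 46, 56 and 52, a range of 40 to 154. The cause was not tested. The split of 53 higher and 48 lower became 28 and 58 with quantile normalization, 24 and 58 with equal upper quartiles, 24 and 48 with abundant genes left out, 25 and 14 without small structured RNAs and 19 and 47 with the length trend removed. The replicate block gave 69 calls (18 higher, 51 lower) and 0 members. Same-numbered libraries correlated at -0.074 to 0.059 in their deviations and others at -0.117 to 0.069, and 4 of 8 libraries correlated best with their own number. The same-number values lay within the range of the others, and whether the numbers pair the libraries stays unknown. TPM without counts limits low genes most.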
